A study of Tigriopus californicus with 4 samples.

Results

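The contigs described here carry the name of a structural protein of the cuticle, the outer covering that copepods, like other arthropods, build beneath the old one and renew at each molt. They were chosen by product name alone. A contig was taken where its name held the word cuticle or cuticular, and names that also held chitin or a square bracket were left out. This gave 74 of 20278 contigs in the San Diego (SD) population and 62 of 20931 contigs in the Santa Cruz (SC) population of the tidepool copepod *Tigriopus californicus*. These totals count the deposited contigs, which are fewer than the paper reports assembling in either population. All contigs, below, means the deposited ones. The 136 contigs carried 22 distinct names, of which 19 occurred in SD, 18 in SC and 15 in both.

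Messenger RNA was sequenced from 4 libraries, each made from 1 pool of 300 to 400 whole animals with every life stage mixed. The heat stress pool of SD and the heat stress pool of SC spent 1 h at 35°C and then 1 h of recovery at 20°C, and the control pool of each population stayed at 20°C. Both populations had been kept in the laboratory at 20°C after collection from the wild. With 1 library per condition no difference can be set against the spread between replicates, and the ranges given in brackets after the ratio of a contig are 95% exact intervals (Clopper-Pearson, from the reads of the 2 libraries) that cover counting error only. The heat stress libraries shared a sequencing lane and the control libraries shared another, so lane and treatment cannot be told apart. In pooled whole animals, a change in how many animals or cells make a transcript and a change in the amount made by each cannot be told apart either.

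Levels are given in RPKM, reads per kilobase of contig, scaled to the reads of the library, mapped by the authors to a separate assembly for each population. The read totals behind the RPKM values in SD were 5583128 for heat stress and 1947202 for control, and in SC they were 4948622 for heat stress and 3256758 for control. A single read on a contig of 500 bp was therefore worth 0.358 RPKM under heat stress and 1.03 RPKM in the control in SD, and 0.404 RPKM under heat stress and 0.614 RPKM in the control in SC. Contigs listed at 0 numbered 5 under heat stress and 577 in the control in SD, and 4 under heat stress and 254 in the control in SC. Each assembly included the reads of both of its libraries. The median contig had a log2 ratio of heat stress to control RPKM of -0.03 in SD and 0.40 in SC. Several SC summaries are therefore repeated with the median contig set to a ratio of 1, called relative to the median contig. Where no such value is given, the SC values are unscaled.

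Cuticle is a layered composite of chitin fibers and proteins, and most of its proteins are known from insects. Many carry the Rebers-Riddiford (RR) consensus, a stretch that binds chitin. In insects the RR-1 form is associated mostly with soft, flexible cuticle and the RR-2 form with hard cuticle. Proteins analogous to peritrophins bind chitin through a different, cysteine-rich domain that they share with proteins of the gut lining, and low complexity families carry neither domain. Synthesis of these proteins in insects follows the molt cycle under the control of ecdysteroid hormones. The names on the copepod contigs were assigned by the best BLAST hit, and some of them cite insect genes. A number in a name such as cuticle protein 6 therefore identifies the matching database entry and not a known copepod gene. Contigs that share a name may be pieces of 1 transcript, alleles or separate genes.

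The cuticle contigs were mostly higher after heat stress in SD and mostly lower in SC. Of the 74 SD contigs, 57 were higher in the heat stress library, 15 were lower and 2 could not be placed, while 47.2% of all SD contigs were higher and 51.8% lower. Those 2 were at 0 in the control, and their recovered heat stress reads, which are minima, did not pass the level that 3 control reads would give. Of the 62 SC contigs, 7 were higher and 55 were lower, while 64.1% of all SC contigs were higher and 35.6% lower. Relative to the median contig, 5 of the cuticle contigs were higher and 57 lower. The populations were mapped and normalized separately, and the difference between their ratios was not tested.

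In SD, 36 of the 74 contigs (48.6%) were past 2-fold up and 1 (1.35%) was past 2-fold down. Over all SD contigs, 9.55% were past 2-fold up and 5.42% past 2-fold down. The median log2 ratio was 0.83 over the 66 cuticle contigs with a value above 0 in both libraries, against -0.03 over all contigs. The cuticle contigs had a median of 29.0 RPKM in the SD heat stress library and 9.32 RPKM in the SD control library. Of the 74 intervals, 39 lay above 1 and 4 below 1, against 1442 and 1911 of all 20278 SD contigs. Past 2-fold up with an interval above 1 were 33 contigs (44.6%), against 3.43% of all SD contigs, and 1 was past 2-fold down with an interval below 1, against 3.79%. With the median contig set to a ratio of 1, the counts stayed at 36 up and 1 down, against 9.95% and 5.06% of all contigs. At 3-fold, 30 were up (5.31% of all contigs) and 0 down (1.96% of all contigs). Tests between the 2 libraries, at a Bonferroni p of at most 0.1 over all contigs, called fewer: 21 up and 1 down by Kal's *Z*-test on RPKM shares (1.35% and 1.24% of all contigs), 19 up and 2 down by the same test on recovered reads (1.39% and 1.78%), and 22 up and 2 down by an exact binomial test on reads (1.57% in either direction). The test on RPKM shares treats RPKM values as if they were reads, so its p depends on contig length and is not a calibrated error rate.

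In SC, 0 of the 62 contigs were past 2-fold up and 35 (56.5%) were past 2-fold down. Over all SC contigs, 28.8% were past 2-fold up and 8.22% past 2-fold down. The median log2 ratio was -1.25 over the 62 cuticle contigs and 0.40 over all contigs, a median of -1.64 relative to the median contig. Relative to the median contig, 41 of the 62 (66.1%) were past 2-fold down, against 16.4% of all contigs, and 0 were past 2-fold up, against 18.2% of all contigs. The cuticle contigs had a median of 11.9 RPKM in the SC heat stress library and 25.3 RPKM in the SC control library. Of the 62 intervals, 2 lay above 1 and 40 below 1, against 6805 and 3590 of all 20931 SC contigs. Past 2-fold down with an interval below 1 were 34 contigs (54.8%), against 6.68% of all SC contigs, and 0 were past 2-fold up with an interval above 1, against 21.2%. At 3-fold, 16 were down (2.62% of all contigs) and 0 up (14.1%). The tests between libraries called 11 down and 0 up on RPKM shares (2.49% and 3.05% of all contigs), 21 down and 1 up by Kal's *Z*-test on reads (7.03% and 10.9%), and 21 down and 1 up by the exact binomial test on reads (6.85% and 11.4%). Such tests compare 2 libraries and not the conditions.

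**Figure D1:**
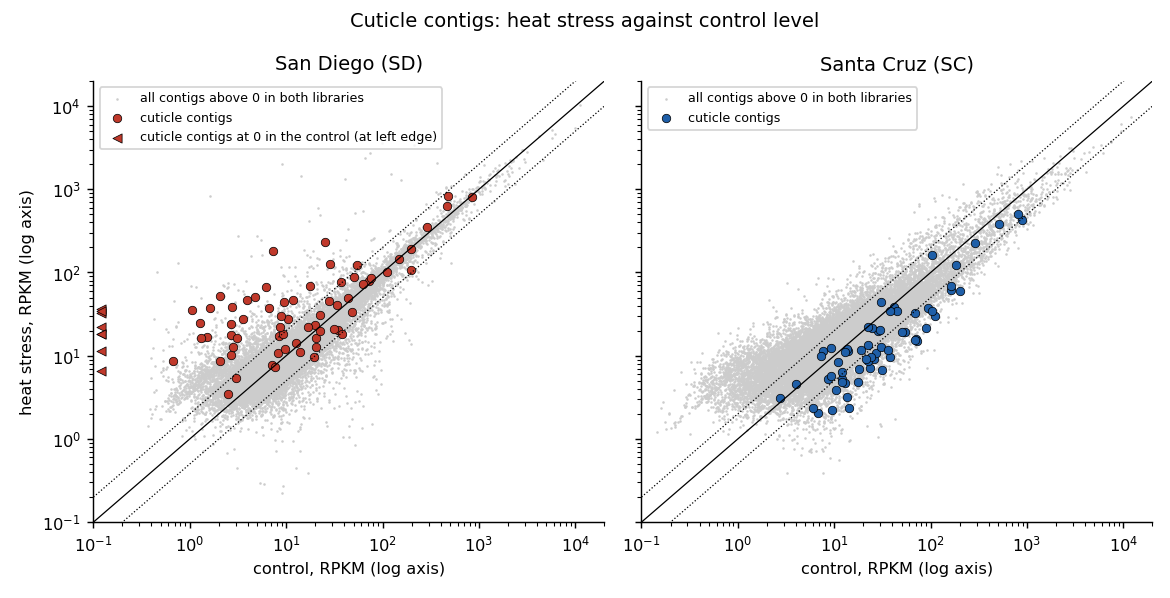
Heat stress RPKM (vertical, log axis) against control RPKM (horizontal, log axis) for cuticle contigs (colored points) and for all contigs above 0 in both libraries (gray), with SD on the left and SC on the right. The solid line marks equal levels and the dotted lines 2-fold differences, and triangles at the left edge mark the 8 SD cuticle contigs at 0 in the control. In SD, 36 of 74 cuticle contigs are past 2-fold up, most of them at low control levels, and in SC 35 of 62 are below the lower dotted line.

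The share of the summed RPKM of the deposited contigs held by cuticle contigs was nearly the same in the control libraries and differed after heat stress. Cuticle contigs made up 0.667% of the summed RPKM under heat stress and 0.442% in the control in SD, and 0.274% under heat stress and 0.437% in the control in SC. Their summed level was 5673 RPKM in the SD heat stress library and 3750.0 RPKM in the SD control library, a ratio of 1.51. In SC the summed level was 2755 RPKM under heat stress and 4921 RPKM in the control, a ratio of 0.560.

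A few abundant contigs carried much of these sums. The 6 SD contigs with the highest control RPKM held 51.5% of the summed cuticle RPKM in the heat stress library and 66.0% in the control library. Those 6 summed to 2920 RPKM under heat stress and 2475 RPKM in the control (ratio 1.18), while the other 68 summed to 2753 RPKM and 1275 RPKM (ratio 2.16). The 6 most abundant SC contigs held 62.5% of the summed cuticle RPKM under heat stress and 58.7% in the control. They summed to 1723 RPKM under heat stress and 2888 RPKM in the control (ratio 0.596), and the other 56 to 1033 RPKM and 2033 RPKM (ratio 0.508). In SD the ratio was larger outside the abundant contigs, and in SC abundant and less abundant contigs were lower by similar factors.

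**Figure D2:**
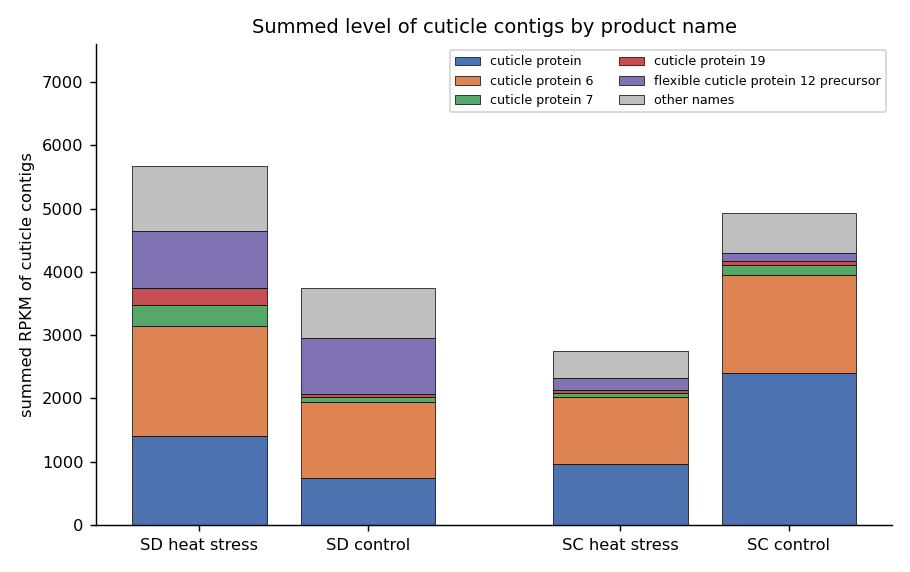
Summed RPKM of all cuticle contigs (vertical axis) in each of the 4 libraries, with bar segments by product name. The SD heat stress bar reaches 5673 RPKM against 3750.0 RPKM in the SD control, and the SC heat stress bar 2755 RPKM against 4921 RPKM in the SC control. The segment for contigs named cuticle protein without a number is 1408 RPKM under heat stress and 738 RPKM in the control in SD, and 969 RPKM and 2404 RPKM in SC.

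The contigs named cuticle protein, with no number, formed the largest name group in both populations. This name says only that the best match was a structural protein of the cuticle. In SD, 26 of 34 were higher after heat stress, 7 were lower and 1 could not be placed, with 21 past 2-fold up and 0 past 2-fold down. Their levels spanned 3.51 to 231 RPKM with a median of 23.6 RPKM in the SD heat stress library, and 0 to 199 RPKM with a median of 5.52 RPKM in the SD control library. The median log2 ratio over the 30 with a ratio was 1.96. Over all SD contigs, 9.55% were past 2-fold up and 5.42% past 2-fold down. Over all SC contigs these shares were 28.8% and 8.22%, and they are the background of every name group. Most of the 21 SD contigs of this name past 2-fold up had 3 control reads or fewer. Of all SD contigs with 1 to 3 control reads, 50.5% were past 2-fold up.

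In SC, all 32 contigs with this name were lower after heat stress, 26 of them past 2-fold, and 25 of the 32 intervals lay below 1. Their levels spanned 2.04 to 422 RPKM with a median of 10.2 RPKM in the SC heat stress library, and 6.82 to 896 RPKM with a median of 26.6 RPKM in the SC control library. The log2 ratios spanned -2.60 to -0.11 with a median of -1.43, and the median relative to the median contig was -1.82.

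Single contigs of this name were chosen as the highest levels, the largest SD rises and the largest SC falls, so they are no measure of the distance between populations. SD_Contig42977 had 231 RPKM in the heat stress library and 25.5 RPKM in the control library, a ratio of 9.08 (6.38 to 13.4). SD_Contig40600 had 24.9 RPKM under heat stress and 1.28 RPKM in the control, a ratio of 19.4 that rests on 3 control reads (6.53 to 95.1). The most abundant SD contig of the name in the control went the other way, since SD_Contig54861 had 107 RPKM under heat stress and 199 RPKM in the control (ratio 0.538, 0.437 to 0.665).

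In SC the most abundant cuticle contig of the control library, SCN_Contig54518, had 422 RPKM under heat stress and 896 RPKM in the control, a ratio of 0.471 (0.438 to 0.507). SCN_Contig57275 had 59.5 RPKM under heat stress and 202 RPKM in the control, a ratio of 0.294 (0.236 to 0.365). SCN_Contig56482 had 15.2 RPKM under heat stress and 71.4 RPKM in the control, a ratio of 0.213 (0.137 to 0.322). SCN_Contig41628, SCN_Contig40907 and SCN_Contig41488 were lower by similar factors, with ratios of 0.245 (0.178 to 0.333), 0.223 (0.131 to 0.366) and 0.219 (0.119 to 0.386). The SC contigs of this name were thus lower from the highest levels to the lowest, with no contig on the other side.

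Cuticle protein 7 followed the same directions. In SD all 9 contigs were higher after heat stress and 7 were past 2-fold up, with a summed level of 346 RPKM under heat stress and 81.8 RPKM in the control (ratio 4.23). In SC, 1 of the 5 contigs was higher and 4 were lower, with 3 past 2-fold down, and the summed level was 64.5 RPKM under heat stress and 153 RPKM in the control (ratio 0.422). SD_Contig62797, the most abundant of the name in the SD control, had 127 RPKM under heat stress and 28.5 RPKM in the control, a ratio of 4.47 (3.06 to 6.77). Its SC counterpart in abundance, SCN_Contig58339, had 34.1 RPKM under heat stress and 104 RPKM in the control, a ratio of 0.329 (0.195 to 0.542). These examples, like the other contigs of numbered names given for a name group, were chosen once their values were known.

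Cuticle protein 19 held the largest SD ratio by the lower end of its interval. SD_Contig60535 had 180 RPKM in the heat stress library and 7.28 RPKM in the control library, a ratio of 24.7 (14.6 to 45.3) on 991 heat stress reads and 14 control reads. All 4 SD contigs of the name were higher and 3 were past 2-fold up, with a summed level of 264 RPKM under heat stress and 40.1 RPKM in the control. The 2 SC contigs differed from each other. SCN_Contig53088 had 44.1 RPKM under heat stress and 30.7 RPKM in the control (ratio 1.44, 1.12 to 1.86), and SCN_Contig37204 had 12.7 RPKM and 30.6 RPKM (ratio 0.415, 0.251 to 0.675). Relative to the median contig, the log2 ratio of SCN_Contig53088 was 0.13.

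Cuticle protein 6 held several of the most abundant contigs in both populations, with ratios within 2-fold, mostly above 1 in SD and below 1 in SC. The 4 SD contigs summed to 1729 RPKM under heat stress and 1206 RPKM in the control, and the 4 SC contigs to 1049 RPKM under heat stress and 1547 RPKM in the control. SD_Contig62652 had 837 RPKM under heat stress and 478 RPKM in the control, a ratio of 1.75 (1.61 to 1.90). SD_Contig54300 had 628 RPKM and 466 RPKM, a ratio of 1.35 (1.26 to 1.44). Of the 4 SD intervals of the name, 3 lay above 1, and SD_Contig42789 had 191 RPKM under heat stress and 199 RPKM in the control (ratio 0.960, 0.781 to 1.19). None of the 4 was past 2-fold.

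In SC all 4 cuticle protein 6 intervals lay below 1 and none was past 2-fold down. SCN_Contig55673 had 508 RPKM under heat stress and 809 RPKM in the control, a ratio of 0.628 (0.583 to 0.675). SCN_Contig55766 had 384 RPKM and 511 RPKM, a ratio of 0.752 (0.686 to 0.824), and SCN_Contig54444 had 123 RPKM and 182 RPKM, a ratio of 0.672 (0.568 to 0.795). The median log2 ratio of the name was 0.33 in SD and -0.49 in SC, and -0.89 in SC relative to the median contig.

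Flexible cuticle protein 12, named for a protein of soft insect cuticle, was on 2 contigs in each population. SCN_Contig35162 had 161 RPKM in the heat stress library and 103 RPKM in the control library, a ratio of 1.57 (1.40 to 1.75), the highest SC ratio among all cuticle contigs. Relative to the median contig its log2 ratio was 0.25. The other SC contig of the name, SCN_Contig35419, had 20.1 RPKM under heat stress and 29.8 RPKM in the control (ratio 0.675, 0.489 to 0.932). In SD the most abundant of all cuticle contigs in the control, SD_Contig42668, had 804 RPKM under heat stress and 844 RPKM in the control, a ratio of 0.953 (0.907 to 1.002). SD_Contig740 had 89.2 RPKM under heat stress and 50.9 RPKM in the control (ratio 1.75, 1.37 to 2.26).

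The less numerous cuticle protein names gave mixed values. Contigs named cuticle protein precursor had a median log2 ratio of 0.40 in SD (3 contigs, 1 past 2-fold up) and -1.16 in SC (2 contigs, 1 past 2-fold down). The SC contig past 2-fold, SCN_Contig58177, had 15.5 RPKM under heat stress and 68.3 RPKM in the control, a ratio of 0.226 (0.147 to 0.342). Of the 3 SD contigs named cuticle protein5a, 2 were at 0 in the control, and the third had 7.32 RPKM under heat stress and 7.64 RPKM in the control. The SC contig of that name had 4.51 RPKM under heat stress and 3.995 RPKM in the control on 12 heat stress reads and 7 control reads, which leaves its ratio of 1.13 with an interval of 0.410 to 3.38.

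**Figure D3:**
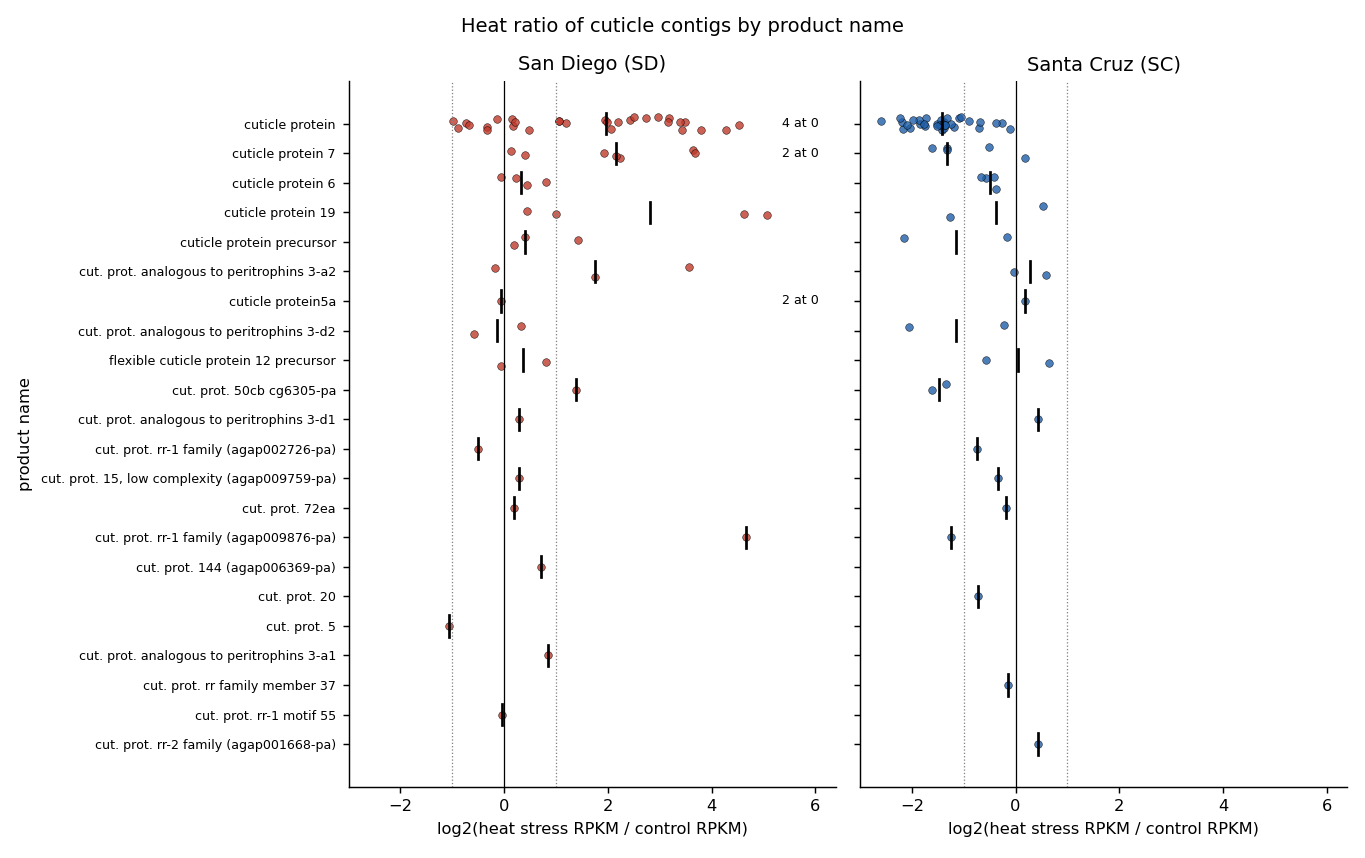
Log2 ratio of heat stress to control RPKM (horizontal axis) for each cuticle contig, 1 row per product name, with SD on the left and SC on the right. Points are contigs spread vertically so that they can be seen, black bars are medians of a name, dotted lines mark 2-fold, and contigs at 0 in the control are given as a number at the right. The median of contigs named cuticle protein is 1.96 in SD and -1.43 in SC, and that of cuticle protein 7 is 2.16 in SD and -1.32 in SC.

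The names analogous to peritrophins had medians closer to 0 than the unnumbered cuticle proteins in both populations. In SD, 5 of 7 contigs were higher after heat stress and 2 were past 2-fold up, with a median log2 ratio of 0.33 and levels of 5.44 to 47.2 RPKM under heat stress and 3.02 to 33.6 RPKM in the control. In SC, 2 of 5 were higher and 3 lower, with 1 past 2-fold down and a median log2 ratio of -0.04, or -0.43 relative to the median contig. Whether this group differs from the other names was not tested. In SD its contigs had 5 control reads or more, while many unnumbered cuticle proteins had 1 to 3. The SD medians of the 2 groups thus come from unlike read depths. Both SD contigs analogous to peritrophins that were past 2-fold carried the name 3-a2, a type known in insects to be needed for the integrity of the cuticle. SD_Contig38656 had 47.2 RPKM under heat stress and 3.97 RPKM in the control, a ratio of 11.9 (5.96 to 27.8), and SD_Contig37816 had 30.0 RPKM and 8.89 RPKM, a ratio of 3.37 (1.98 to 6.18). The third SD contig of that name, SD_Contig39345, had 19.7 RPKM under heat stress and 22.2 RPKM in the control (ratio 0.887, 0.652 to 1.22), so contigs with the same name did not move together. SD_Contig39238, named 3-d2, was lower, with 21.1 RPKM under heat stress and 31.7 RPKM in the control (ratio 0.666, 0.457 to 0.982). In SC, SCN_Contig32336, named 3-a2, had 21.97 RPKM under heat stress and 22.5 RPKM in the control (ratio 0.974, 0.753 to 1.27).

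Names that cite the RR consensus were few, with 3 RR-1 contigs in SD, and 2 RR-1 contigs, 1 RR-2 contig and 1 contig named RR family member 37 in SC. SD_Contig60650, named RR-1 motif 55, had 145 RPKM under heat stress and 149 RPKM in the control, a ratio of 0.974 (0.852 to 1.12). The SC contig of the RR-2 family, SCN_Contig33129, had 9.91 RPKM under heat stress and 7.34 RPKM in the control, a ratio of 1.35 with an interval of 0.762 to 2.47, and its log2 ratio relative to the median contig was 0.04. SCN_Contig36643, named RR family member 37, had 34.6 RPKM under heat stress and 38.3 RPKM in the control, a ratio of 0.903 (0.599 to 1.37). The other RR-1 contigs carry names found on 1 contig in each population and are described with those names.

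Of the remaining cuticular protein names, cuticular protein 50cb, named after a fruit fly gene, was on 1 SD contig with 22.3 RPKM under heat stress and 8.57 RPKM in the control (ratio 2.60, 1.38 to 5.41). Both SC contigs of that name were past 2-fold down, with ratios of 0.329 (0.176 to 0.595) and 0.392 (0.243 to 0.624). Cuticular protein 5, found in SD alone on SD_Contig38062, was the single SD cuticle contig past 2-fold down. It had 18.3 RPKM under heat stress and 38.2 RPKM in the control, a ratio of 0.478 (0.373 to 0.615).

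Of the names, 5 were on exactly 1 contig in each population, which allows their ratios to be set side by side, though a shared best hit does not show that the contigs are orthologs. Cuticular protein 15 of the low complexity family had nearly equal control levels in SD and SC. In SD it had 353 RPKM under heat stress and 289 RPKM in the control, a ratio of 1.22 (1.13 to 1.32). In SC it had 227 RPKM under heat stress and 288 RPKM in the control, a ratio of 0.787 (0.732 to 0.846), and the intervals did not overlap.

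The RR-1 family name with the mosquito gene identifier agap009876 showed the widest gap. In SD it had 52.2 RPKM under heat stress and 2.05 RPKM in the control, a ratio of 25.5 that rests on 3 control reads (8.60 to 124). In SC it had 9.06 RPKM under heat stress and 21.5 RPKM in the control, a ratio of 0.421 (0.210 to 0.821). The control level of this name was lower in SD than in SC, and its heat stress level was higher in SD than in SC.

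For the other 3 names the intervals of the populations overlapped. Cuticular protein 72ea had 86.3 RPKM under heat stress and 75.2 RPKM in the control in SD (ratio 1.15, 0.963 to 1.37), and 21.7 RPKM and 24.7 RPKM in SC (ratio 0.877, 0.339 to 2.36). The 3-d1 name analogous to peritrophins had 40.7 RPKM under heat stress and 33.6 RPKM in the control in SD (ratio 1.21, 0.893 to 1.67), and 12.4 RPKM and 9.22 RPKM in SC (ratio 1.34, 0.824 to 2.23). The RR-1 family name with agap002726 was lower after heat stress in both, with 33.8 RPKM under heat stress and 47.9 RPKM in the control in SD (ratio 0.706, 0.539 to 0.931), and 13.5 RPKM and 22.6 RPKM in SC (ratio 0.598, 0.310 to 1.15).

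The 8 SD contigs at 0 in the control comprised 4 named cuticle protein, 2 named cuticle protein 7 and 2 named cuticle protein5a. No SC cuticle contig was at 0 in either library. A count of 0 allows up to 3 reads, and against that floor in the SD control library 4 of the 8 were past 2-fold. SD_Contig21, named cuticle protein 7, had 32.5 RPKM under heat stress and was at least 12.8-fold higher. SD_Contig48461, named cuticle protein, had 36.3 RPKM and was at least 9.65-fold higher. SD_Contig43362, named cuticle protein 7, had 18.3 RPKM and was at least 6.16-fold higher, and SD_Contig61695, named cuticle protein, had 11.4 RPKM and was at least 4.77-fold higher. The lower ends of the exact intervals of these 4 were 10.2, 7.67, 4.84 and 3.70. The remaining 4 had 5 to 11 recovered heat stress reads each, and on those reads did not pass 2-fold against the floor. Recovered reads are minima, and more reads would raise these bounds, so the 4 are not shown to lie within 2-fold. SD_Contig53548, SD_Contig55040, SD_Contig60886 and SD_Contig62162 had 22.1, 18.3, 6.61 and 34.1 RPKM under heat stress.

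The heat ratio was next set against the control level in each population, and the difference between populations in this relation was not tested. In SD, the 30 cuticle contigs with 1 to 10 RPKM in the control had a median log2 ratio of 2.47, and 24 of them (80.0%) were past 2-fold up. The 27 contigs with 10 to 100 RPKM had a median of 0.22, with 7 (25.9%) past 2-fold up. The 8 contigs above 100 RPKM had a median of -0.05, with 0 past 2-fold up. Ratios past 2-fold in SD were thus more frequent among contigs with low control levels, though not confined to them.

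The control level is also the denominator of the ratio, and a low level rests on few reads, so such a slope can come from the measure. Its part in the slope was not tested. Over all SD contigs the medians in the same ranges of control RPKM were 0.22, -0.10 and -0.06, and 19.8%, 1.74% and 1.26% were past 2-fold up. Cuticle contigs were above this background from 1 to 100 RPKM and at it above 100 RPKM. Spearman's correlation coefficient between log2 ratio and control RPKM was -0.71 over 66 SD cuticle contigs and -0.34 over 19696 SD contigs. With the geometric mean of both libraries on the horizontal axis in place of the control level, the coefficient was -0.46 over the cuticle contigs and -0.17 over all contigs. Over contigs with at least 10 control reads it was -0.43 for 35 cuticle contigs and -0.04 for all 13199. All points of a coefficient come from the same 2 libraries, so these are descriptions with no test.

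The SD ratios were also split by control reads, which are the denominator of the ratio. Of the 74 SD contigs, 16 had 1 to 3 control reads, and these had a median log2 ratio of 3.43 with 15 past 2-fold up. All 2636 SD contigs with 1 to 3 control reads had a median of 1.07, and 50.5% were past 2-fold up. Where the control had 10 reads or more, the 35 cuticle contigs had a median log2 ratio of 0.29, with 10 (28.6%) past 2-fold up and 1 past 2-fold down. All SD contigs with at least 10 control reads had a median of -0.09, and 1.60% were past 2-fold up. The SD heat stress library held 2.87 times the reads of the SD control library, which was the shallowest of the 4. The part of this difference in depth in the ratios was not tested.

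In SC the cuticle contigs with the lowest control levels had ratios closest to 1. The 10 contigs with 1 to 10 RPKM in the control had a median log2 ratio of -0.26, with 5 higher, 5 lower and 3 past 2-fold down. The 41 contigs with 10 to 100 RPKM had a median of -1.33, with 1 higher and 26 past 2-fold down, and the 11 above 100 RPKM had a median of -1.09, with 1 higher and 6 past 2-fold down. Over all SC contigs the medians in these ranges were 0.94, -0.04 and -0.50, and 3.13%, 11.8% and 20.8% were past 2-fold down. Cuticle contigs were therefore below the background of their own level in each range, by log2 differences that were widest below 100 RPKM. Spearman's coefficient with control RPKM was -0.20 over 62 cuticle contigs and -0.63 over 20673 SC contigs. With the geometric mean on the horizontal axis the coefficient was 0.05 for the cuticle contigs, so that its sign turned, and -0.43 for all contigs. Of the 62 contigs, 59 had at least 10 control reads, and their median log2 ratio was -1.27. Over contigs with at least 10 control reads the coefficient with control RPKM was -0.12 for these 59 and -0.44 for all 14827.

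**Figure D4:**
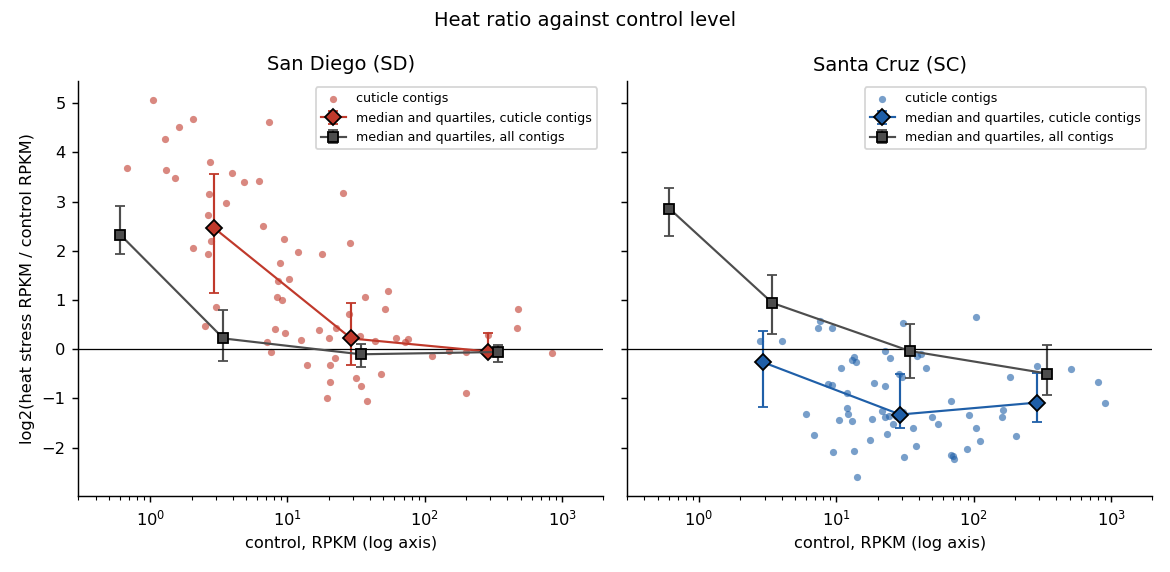
Log2 ratio of heat stress to control RPKM (vertical axis) against control RPKM (horizontal, log axis) for cuticle contigs (points), with SD on the left and SC on the right. Diamonds are medians of cuticle contigs and squares medians of all contigs in each range of control RPKM that holds at least 5 contigs, drawn at the middle of the range, and bars span the quartiles. In SD the cuticle medians are 2.47, 0.22 and -0.05 from low to high levels against 0.22, -0.10 and -0.06 for all contigs, and in SC they are -0.26, -1.33 and -1.09 against 0.94, -0.04 and -0.50.

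A list of other contigs, taken by words that name genes of cuticle building or remodeling, was measured beside the structural proteins. It held chitin synthases and chitinases, which make and degrade chitin, chitin deacetylases, chitin-binding proteins and laccase. Names with phenoloxidase, ecdysone and related words were also taken. The words also matched other proteins, such as activators of prophenoloxidase, ecdysoneless homologs, a gut-specific chitinase and peritrophic membrane proteins. In SD, 10 of 65 such contigs (15.4%, background 9.55%) were past 2-fold up and 4 (6.15%, background 5.42%) past 2-fold down, with a median log2 ratio of -0.02. In SC, 21 of 75 (28.0%, background 28.8%) were past 2-fold up and 4 (5.33%, background 8.22%) past 2-fold down, with a median of 0.36, or -0.04 relative to the median contig.

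Within that list, 6 of 9 chitin synthase contigs were past 2-fold up in SC (background 28.8%), and in SD 1 of 6 (background 9.55%). In SD, 1 was also past 2-fold down (background 5.42%). The 9 SC contigs had 0 to 10.4 RPKM in the control, and 47.0% of all SC contigs at 1 to 10 RPKM were past 2-fold up. Their median log2 ratio was 1.11, against 0.94 for all SC contigs in that range. The summed level of the 9 SC contigs was 130 RPKM under heat stress and 49.0 RPKM in the control. The summed level of the 6 SD contigs was 71.4 RPKM under heat stress and 61.8 RPKM in the control. The 7 SD contigs with ecdysone or ecdysteroid in the name, ecdysoneless homologs included, had ratios between 0.897 and 1.05, with a median of 0.951. The 9 SC contigs of these names had ratios between 0.485 and 4.95, with a median of 1.51 and 5 intervals above 1, or a median log2 ratio of 0.19 relative to the median contig. The partner of bursicon, a subunit of the hormone that in insects triggers hardening of the new cuticle, had the directions of the structural proteins. In SD it had 18.4 RPKM under heat stress and 7.05 RPKM in the control, a ratio of 2.62 (1.35 to 5.68), and in SC it had 16.6 RPKM under heat stress and 34.2 RPKM in the control, a ratio of 0.484 (0.333 to 0.700). It was picked out after its values had been seen.

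Because the pools mixed life stages, markers of adult females and of muscle were measured beside the cuticle contigs. Over all contigs, 9.55% in SD and 28.8% in SC were past 2-fold up, and 5.42% and 8.22% past 2-fold down. Vitellogenin, the yolk protein precursor made by adult females, had 0 of 27 contigs past 2-fold up and 3 past 2-fold down in SD, with a summed level of 12429 RPKM under heat stress and 13913 RPKM in the control. In SC, 9 of 14 vitellogenin contigs were past 2-fold up and 0 down, with a median log2 ratio of 1.82 (1.43 relative to the median contig) and a summed level of 8672 RPKM under heat stress and 3263 RPKM in the control. Myosin heavy chain, the motor protein of muscle, had 1 of 32 contigs past 2-fold up in SD, with a summed level of 2751 RPKM under heat stress and 2204 RPKM in the control. In SC, 34 of 43 myosin heavy chain contigs were past 2-fold up, with a median log2 ratio of 1.70 (1.30 relative to the median contig) and a summed level of 5649 RPKM under heat stress and 1827 RPKM in the control. No marker contig was at 0 under heat stress, and in the control 2 SD and 1 SC vitellogenin contigs and 2 SC myosin heavy chain contigs were. Both marker lists thus moved with heat stress in SC, opposite to the cuticle contigs, and stayed mostly within 2-fold in SD. The part of stage or tissue make-up of the pools in the cuticle values was not tested.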

How the data were processed

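Reads were trimmed by the authors and assembled, together with their earlier reads, into contigs of each population. Libraries were mapped in CLC Genomics Workbench (version 4.5) to the matching assembly, and contigs took the name of their best BLASTX hit. For a part of the assembled contigs the authors deposited 1 RPKM value per contig and library, normalized to contig length and library reads. RPKM was used as deposited. Ratios are heat stress over control RPKM. A ratio at or past 2-fold was called, with no test, since each condition has 1 library. Whole reads were recovered from RPKM by finding each library's total and, per contig, the smallest length (36 to 10000 bp) that makes the reads of heat stress and control whole. Matches had a chance below 0.05 for 87.7% of SD and 100% of SC contigs. These reads are minima, so intervals are wide. The recovery was tried on simulated data built on the recovered lengths, with reads scored only for contigs above 0 in both libraries. It was thus not checked for contigs at 0 in the control. Contigs at 0 in the control were set against a floor of 3 reads. Medians leave them out.

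The members and lists were chosen with earlier results of these data known. Contigs named singly were, in each population, the 6 highest in either library, the 6 largest rises by the lower and falls by the upper end of the interval, those at 0 in the control, and names on 1 contig in each population. Other contigs named were chosen after seeing their values. Alternatives were 1 RPKM added, scaling to the median contig, filters of 1 RPKM or 10 control reads, dropped names kept, a 3-fold threshold, a 2-fold threshold with an interval clear of 1, Kal's *Z*-test on RPKM shares or reads, an exact binomial test on reads (Bonferroni p of at most 0.1), and the geometric mean as level. Contig sequences were not used here. Python 3.11.15, numpy 2.4.6, pandas 2.3.3, scipy 1.17.1 and matplotlib 3.10.9 were used.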

Additional observations from a re-analysis of the deposited data

Results flagged for a closer look

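For 3 of the names found on 1 contig in each population, the log2 ratio was above 0 in SD and below 0 in SC. The log2 ratio in SD minus that in SC was 5.92 for the RR-1 family name with agap009876, 0.633 for cuticular protein 15 of the low complexity family and 0.387 for cuticular protein 72ea. With 1 library per condition in each population, these differences were not tested. The counting intervals of the populations overlapped for cuticular protein 72ea and did not for the other 2 names.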

How the results depend on the processing

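No paired analysis was possible because each condition has 1 library and the labels carry no replicate numbers, and for the same reason no library could be left out. The direction of the cuticle medians held under every alternative run in both populations. In SD, the number past 2-fold up (36) became 10 with at least 10 control reads, 21 and 19 called by Kal's *Z*-test on RPKM shares and on recovered reads, and 22 by the exact binomial test. These tests compare 2 libraries, not conditions. All SD contigs called up were 1.35%, 1.39% and 1.57% by those tests. The number down in SD (1) became 0 at 3-fold and 2 by Kal's test on reads and by the exact test. The SD median log2 ratio (0.83) became 0.29 with at least 10 control reads, and Spearman's coefficient (-0.71) became -0.43 with that filter and -0.46 with the geometric mean. In SC, the number down (35) became 16 at 3-fold, 11 by Kal's test on RPKM shares, and 21 by Kal's test on reads and by the exact test, against 2.62%, 2.49%, 7.03% and 6.85% of all SC contigs. The number up in SC (0) became 1 by Kal's test on reads and by the exact test, the flexible cuticle protein 12 contig. The SC median (-1.25) became -1.64 with scaling to the median contig, and Spearman's coefficient (-0.20) turned to 0.050 with the geometric mean. The filter on control reads leaves fewer contigs, which by itself can lower counts. The SD share past 2-fold up also fell with it, from 48.6% of 74 to 28.6% of 35 contigs. Over all SD contigs the share fell from 9.55% to 1.60%. The cause of these changes was not tested.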
